A study of Mus musculus with 6 samples.

Results

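Of 10 myeloid C-type lectin receptor genes measured by RNA sequencing, 7 differed between macrophages grown from the mouse bone marrow cells called TpMos and macrophages grown from mature Ly6Chi monocytes, where 12.3% of all genes tested did. Without TpMo-derived replicate 1 the count was 4. The genes were Clec7a, Clec4n, Clec4e, Clec4d, Clec5a, Clec12a, Clec4a2, Clec4a1, Clec4a3 and Clec10a, taken by symbol from the 55487 genes of the counts table, and all 10 passed the filter on low counts. Both groups held 3 libraries of cells that had been sorted from bone marrow and kept for 7 days in medium with serum and CSF-1, the growth factor of macrophages. Strain, age, sex, the CSF-1 concentration of each culture and any shared animal are not stated in the labels. The labels do not say whether the replicates are separate cultures or animals. The p-values therefore cover the spread among these 6 libraries, which may be technical.

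C-type lectin receptors are membrane proteins of myeloid cells that bind sugars, lipids and other ligands on microbes and on dying cells. The activating ones either carry a tyrosine motif of their own, as Dectin-1 does, or pair with the adaptors FcRγ (gene Fcer1g) or DAP12 (gene Tyrobp), and they signal through the kinase Syk to the Card9, Bcl10 and Malt1 complex. The inhibitory ones carry an ITIM, a tyrosine motif that recruits phosphatases such as SHP-1 (gene Ptpn6). Macrophages use these receptors to detect fungi and mycobacteria and to take up glycoproteins.

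The libraries held 23765773 to 33042094 counts on genes. The labelled cell type was checked against 10 macrophage markers, among them Adgre1, Csf1r, Cd68 and Lyz2, and all 10 were detected in every library. Of these, 5 rose and 2 fell in TpMo-derived macrophages, while 12.3% of all genes tested changed. The summed level of the 10 markers was 35747 to 38314 against 29071 to 32144 CPM (counts-per-million on TMM-scaled library totals). Among markers of other cells, the lymphoid genes summed to 1.02 to 4.30 CPM, the neutrophil genes to 0.218 to 2.75 CPM and the mast cell and basophil genes to at most 4.21 CPM per library. Dendritic cell markers summed to 116 to 164 CPM in TpMo-derived and 47.9 to 58.7 CPM in Ly6Chi-derived libraries. Of that list, Flt3, Ccr7, Siglech and Btla had no count, and most of the sum was Bst2, which interferon also induces, at 111 to 159 CPM against 35.5 to 42.5 CPM. Cd24a of the same list went the other way, at 3.24 ± 0.735 against 12.8 ± 1.76 CPM (SD, n = 3), and fell. The part of these markers in the results below was not tested.

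Of the 10 genes, 9 lie on chromosome 6 and Clec10a lies on chromosome 11 (70156197 to 70170834, GRCm38). Clec4a1, Clec4a3, Clec4a2, Clec4n, Clec4d and Clec4e stand in this order within 368 kb (122921848 to 123289870), the Dectin-2 cluster, and Clec12a and Clec7a bound a 130.1 kb stretch (129342691 to 129472779) 6053 kb further on, the Dectin-1 cluster. Clec5a stands apart from both (40574894 to 40585821). None of the 10 shares an exonic base with another gene of the table. The GENCODE M21 annotation classes Clec7a as a polymorphic pseudogene and the other 9 as protein-coding. At the read length of 51 bases, 8.75% of the distinct 51-base stretches of Clec10a transcripts also occur in other genes, chiefly its neighbour Mgl2, and 6.69% of those of Clec4a2, chiefly in Clec4a4 and Clec4b1. Reads on such stretches that map to several places were left out of the counts, so these levels are somewhat uncertain. For the other 8 genes the share was at most 0.622%.

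RefSeq upstream windows on GRCm38.p6 were found for 8 of the 10 genes, and 5 are shown. They were chosen because these genes changed in opposite directions and their windows hold matches to patterns for sites of myeloid factors. Each is the 250 bases before the start site, 5′ to 3′ on the gene's strand. Capitals mark GAGGAA (the core of PU.1 sites), TTNNGNAA (a loose pattern for C/EBP) and TGANTCA (a pattern looser than the AP-1 site). They were searched on both strands, so that TTCCTC is GAGGAA read from the other strand.
Clec7a, chr6:129472780-129473029, minus strand: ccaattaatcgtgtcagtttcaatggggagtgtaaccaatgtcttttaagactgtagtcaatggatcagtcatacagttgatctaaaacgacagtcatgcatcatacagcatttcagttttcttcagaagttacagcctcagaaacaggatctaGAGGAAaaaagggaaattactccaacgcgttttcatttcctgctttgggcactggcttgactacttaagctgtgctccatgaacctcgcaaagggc
Clec4e, chr6:123289872-123290121, minus strand: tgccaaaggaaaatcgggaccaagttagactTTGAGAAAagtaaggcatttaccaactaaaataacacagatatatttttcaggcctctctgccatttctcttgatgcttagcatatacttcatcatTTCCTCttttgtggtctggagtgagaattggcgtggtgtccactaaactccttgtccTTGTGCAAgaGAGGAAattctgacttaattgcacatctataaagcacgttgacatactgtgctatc
Clec5a, chr6:40585806-40586055, minus strand: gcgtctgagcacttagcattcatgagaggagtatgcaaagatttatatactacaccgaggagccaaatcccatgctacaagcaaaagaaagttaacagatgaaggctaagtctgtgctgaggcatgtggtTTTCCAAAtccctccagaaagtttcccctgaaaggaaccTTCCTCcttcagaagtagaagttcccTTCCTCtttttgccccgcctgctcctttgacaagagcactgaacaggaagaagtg
Clec12a, chr6:129349994-129350243, plus strand: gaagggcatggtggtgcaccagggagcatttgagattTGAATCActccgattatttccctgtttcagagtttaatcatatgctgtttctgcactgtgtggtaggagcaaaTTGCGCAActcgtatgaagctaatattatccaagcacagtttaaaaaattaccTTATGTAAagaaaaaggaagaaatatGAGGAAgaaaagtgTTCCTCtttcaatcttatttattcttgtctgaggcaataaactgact
Clec4a1, chr6:122921598-122921847, plus strand: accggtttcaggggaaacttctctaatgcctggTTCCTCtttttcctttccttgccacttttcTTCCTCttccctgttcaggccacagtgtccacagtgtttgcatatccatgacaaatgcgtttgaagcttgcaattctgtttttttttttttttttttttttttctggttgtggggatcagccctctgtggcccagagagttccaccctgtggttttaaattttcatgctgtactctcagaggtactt

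GAGGAA occurred in 6 of the 8 windows, against 23.3% of 32851 windows of the same length, and TTNNGNAA in 5 of 8, against 36.8%. Both occurred in windows of genes that were lower in TpMo-derived macrophages (Clec4e, Clec5a) and of Clec12a, which was higher. Both also occurred in the window of Clec4d, which did not pass. None of the motifs searched occurred in the window of Clec4a3, which was higher. TGANTCA occurred in 1 of the 8 windows, that of Clec12a, as TGAATCA, against 6.75% of all windows. With its open base the pattern is looser than the AP-1 site. The interferon-stimulated response element and CACGTG, the E-box of MITF and TFE factors, occurred in 0 of 8, against 2.98% and 6.02%. The RefSeq start sites of Clec12a and Clec4a2 lie 7553 and 16262 bases inside the start of the gene as the counts table draws it. A match describes letters and is not a shown binding site.

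The comparison asked how macrophages derived from the 2 kinds of sorted cell differ. Of 5 receptors that activate through Syk, 4 were lower in TpMo-derived macrophages, most of all Clec7a (Dectin-1, the receptor for fungal β-glucan). The inhibitory receptor Clec12a and the DCIR relatives Clec4a1 and Clec4a3 were higher, but Clec4a3 lost its call in most fits without 1 library. Clec4a2, the other receptor with an ITIM, did not pass, and all its TpMo-derived values were below the Ly6Chi-derived ones. Over the 10 genes, 3 rose and 4 fell, and 3 did not pass (quasi-likelihood test of edgeR, p adjusted by Benjamini-Hochberg over 13140 genes, threshold 0.05), where 12.3% of all genes tested changed, 6.54% upward and 5.79% downward. Of the 6253 genes that average 20 CPM or more, as 9 of the 10 receptors do, 19.6% changed. The groups did not overlap for 8 receptors, against 30.5% of all genes tested. The median log2 fold change (TpMo-derived over Ly6Chi-derived) was -0.23 over the receptors and 0.01 over all genes tested. The 10 genes were chosen with results of these data known, so the counts carry no test. In bulk RNA, fewer cells that express a gene and less RNA per cell cannot be told apart.

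**Figure D1:**
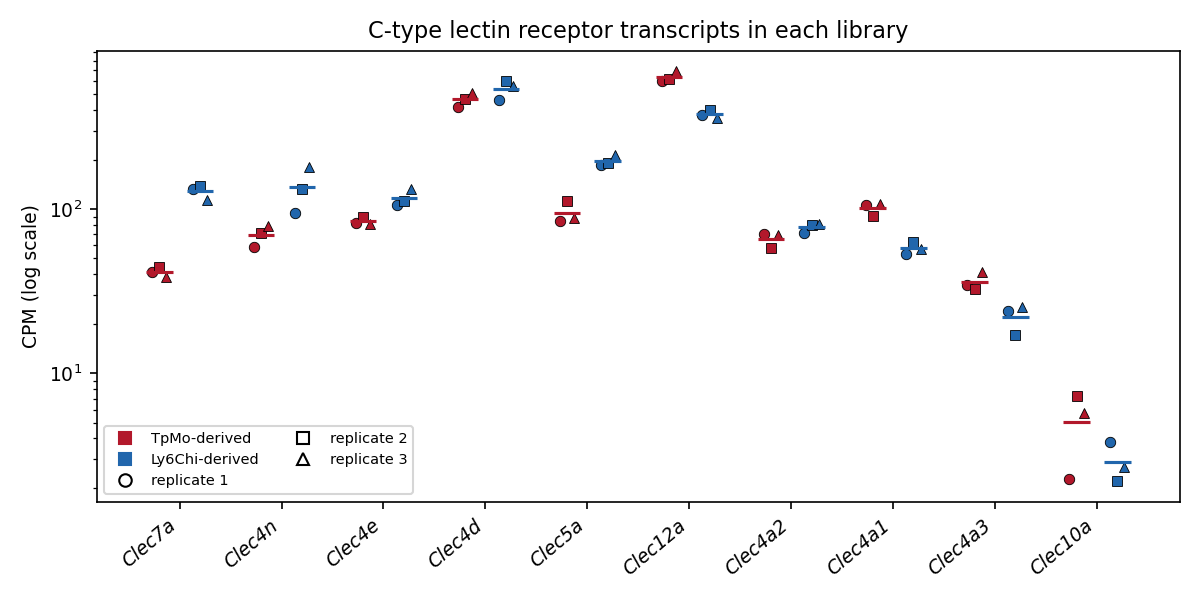
CPM of the 10 receptors on a log scale in each library, with TpMo-derived in red, Ly6Chi-derived in blue, 1 symbol per replicate and a bar at the mean of 3 libraries. Clec7a, Clec4n, Clec4e and Clec5a lie lower in all 3 TpMo-derived libraries, as does Clec4a2, only just and without passing the test. Clec12a, Clec4a1 and Clec4a3 lie higher, and Clec4d and Clec10a overlap.

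Clec7a (ENSMUSG00000079293.11) had the largest difference of the 10. It stood at 41.3, 44.6 and 38.3 CPM in the TpMo-derived and at 133, 139 and 114 CPM in the Ly6Chi-derived libraries. Every Ly6Chi-derived library lay far above every TpMo-derived one. The log2 fold change was -1.64 ± 0.11 (SE), or 3.11-fold lower in TpMo-derived macrophages, with an adjusted p of 2.26e-05 by edgeR. It stayed past the threshold in all 16 alternative settings, with log2 fold changes from -1.72 to -1.59.

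Clec5a (ENSMUSG00000029915.14, MDL-1, an activating receptor that pairs with DAP12) stood at 84.9, 112 and 87.7 CPM in TpMo-derived and at 186, 192 and 212 CPM in Ly6Chi-derived libraries. The groups did not overlap, and replicate 2 was the highest of the TpMo-derived libraries. The log2 fold change was -1.05 ± 0.12 (SE, adjusted p = 2.96e-04, edgeR), and the call held in all 16 alternatives. Clec7a and Clec5a were the only receptors of the 10 with a difference of at least 2-fold, and the only ones that passed a test against a 1.5-fold change.

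The remaining activating receptors are the FcRγ-coupled genes Clec4n, Clec4d and Clec4e, neighbours at one end of the Dectin-2 cluster. Clec4n (Dectin-2, a receptor for fungal mannans) stood at 58.3, 71.2 and 78.9 CPM against 93.9, 133 and 181 CPM in Ly6Chi-derived libraries. All Ly6Chi-derived libraries were higher, but they spread widely, with an SD of 43.6 CPM around a mean of 136 CPM. The log2 fold change was -0.97 ± 0.21 (SE, adjusted p = 0.0134, edgeR). The gene did not pass when TpMo-derived replicate 1 was left out (adjusted p = 0.0605) and with no count filter (adjusted p = 0.0522, edgeR), over a range of 5.66e-05 to 0.259 in all alternatives.

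Clec4e (Mincle, which binds mycobacterial cord factor and a protein released from dying cells) stood at 82.1, 89.0 and 81.6 CPM in TpMo-derived and at 106, 112 and 133 CPM in Ly6Chi-derived libraries. The TpMo-derived values lay close together and all below the others. The log2 fold change was small, -0.48 ± 0.11 (SE, adjusted p = 0.0171, edgeR), and the gene did not pass when TpMo-derived replicate 1, TpMo-derived replicate 3 or Ly6Chi-derived replicate 3 was left out (adjusted p = 0.059, 0.0681 and 0.0684, over a range of 5.38e-04 to 1 in all alternatives). Clec4d (MCL, the partner chain of Mincle) stood at 419.5, 466 and 510.4 CPM against 462, 599 and 560.5 CPM. Its groups overlapped and it did not pass (log2 fold change -0.22 ± 0.10 SE, adjusted p = 0.234, edgeR). Of the 5 activating receptors, 4 thus fell and Clec4d did not pass.

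**Figure D2:**
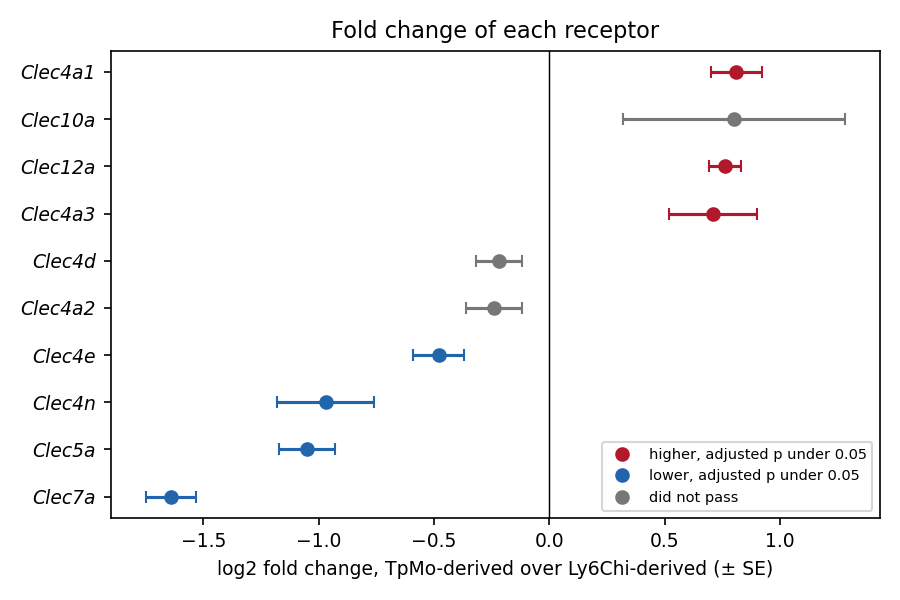
Log2 fold change of each receptor, TpMo-derived over Ly6Chi-derived, with its SE as a bar, from the edgeR fit over all genes with 3 libraries per group. The values run from -1.64 for Clec7a to 0.81 for Clec4a1, and the 3 receptors in grey did not pass.

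The receptors with an ITIM were Clec12a and Clec4a2. Clec12a (ENSMUSG00000053063.11, MICL, which binds uric acid crystals and restrains responses to dead cells) stood at 604, 624 and 691 CPM in TpMo-derived and at 375, 402 and 357 CPM in Ly6Chi-derived libraries. Every TpMo-derived library was higher, and the groups were far apart relative to their spread. The log2 fold change was 0.76 ± 0.07 (SE, adjusted p = 1.24e-04, edgeR). The call ended only against a 1.5-fold change (adjusted p = 0.122, over a range from 5.09e-19 in all alternatives).

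Clec4a2 (DCIR, an inhibitory receptor of dendritic cells and macrophages) stood at 70.0, 57.6 and 69.1 CPM against 71.2, 80.3 and 81.6 CPM. The groups only just failed to overlap, and the gene did not pass (log2 fold change -0.24 ± 0.12 SE, adjusted p = 0.242, edgeR). Of the inhibitory pair, only Clec12a thus passed the test.

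Clec4a1 and Clec4a3 are relatives of DCIR at the other end of the Dectin-2 cluster, 17.9 kb apart. Clec4a1 stood at 106, 90.7 and 107 CPM in TpMo-derived and at 53.4, 62.9 and 56.8 CPM in Ly6Chi-derived libraries, with no overlap (log2 fold change 0.81 ± 0.11 SE, adjusted p = 0.00127, edgeR, lost only against a 1.5-fold change, at 0.212, over a range from 7.12e-10). Clec4a3 stood at 34.6, 32.5 and 41.2 CPM against 23.8, 17.1 and 25.2 CPM. Its groups did not overlap either, and the log2 fold change was 0.71 ± 0.19 (SE, adjusted p = 0.0349, edgeR). That call was lost without TpMo-derived replicate 1 or 3 and without each of the 3 Ly6Chi-derived replicates (adjusted p from 0.0567 to 0.134, over a range of 0.00398 to 0.934 in all alternatives), while its log2 fold change stayed between 0.55 and 0.82.

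Clec10a (a galactose-binding endocytic receptor often used as a marker of alternatively activated macrophages) was the lowest of the 10, with 60 to 195 counts per library. It stood at 2.27, 7.24 and 5.69 CPM against 3.81, 2.20 and 2.67 CPM. The TpMo-derived libraries spread more than the groups differed, and the gene did not pass (log2 fold change 0.80 ± 0.48 SE, adjusted p = 0.359, edgeR).

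Along chromosome 6 the direction of change followed position only in part. In the Dectin-2 cluster the table lists 13 genes, of which 8 were tested. From one end, Clec4a1 and Clec4a3 rose, Clec4a4, Clec4b1 and Clec4a2 did not pass, and after a stretch of 5 genes with at most 3 counts in all libraries, Clec4n fell, Clec4d did not pass and Clec4e fell. Clec4a4 and Clec4b1 were barely detected, with 53 and 133 counts over all 6 libraries. In the Dectin-1 cluster, Clec12a rose and Clec7a fell at a distance of 96.3 kb, and the 5 genes between them, among them Clec9a and Clec1b, held 0 to 44 counts in all.

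**Figure D3:**
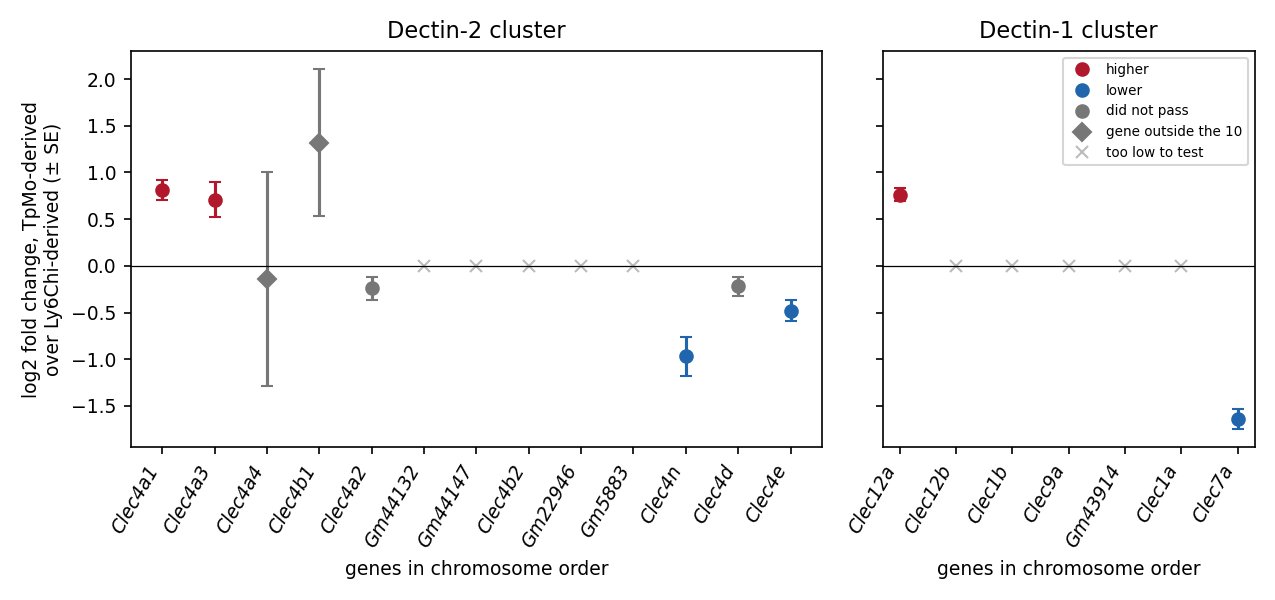
Log2 fold change with SE, TpMo-derived over Ly6Chi-derived, for the genes of both chromosome 6 clusters in chromosome order, with circles for the 10 receptors, diamonds for other genes tested and crosses, set at 0, for genes too low to test. Each stretch was drawn between 2 of the 10 receptors. In the Dectin-2 cluster higher genes (red) and lower genes (blue) stand at opposite ends. In the Dectin-1 cluster only the 2 genes that bound it were tested, so their place at its ends shows no pattern.

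Per length of exon (CPM per kb of exon), Clec4d was the most abundant receptor in both groups, with levels of 262, 292 and 319 in TpMo-derived and 289, 374 and 351 in Ly6Chi-derived libraries. It made up 44.8 to 47.0% of the summed level of the 10 receptors in the first group and 46.5 to 50.1% in the second. The length is that of all annotated exons of a gene, 5528 bases for Clec12a and 1599 for Clec4d. The order and the shares depend on it, and in CPM alone Clec12a was above Clec4d in the TpMo-derived libraries. Below Clec4d the order of the levels differed between the groups. In TpMo-derived macrophages Clec12a (116 ± 8.18, SD, n = 3), Clec4a1 (65.0 ± 5.89) and Clec4n (48.9 ± 7.32) came next, each apart from its neighbour in all libraries, and Clec4e (17.0 ± 0.827) and Clec7a (15.7 ± 1.20) overlapped near the end. Clec4a3, Clec5a and Clec4a2 lay between 19.7 and 31.1 and also overlapped with their neighbours among these 3.

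In Ly6Chi-derived macrophages Clec4n (95.8 ± 30.7) and Clec12a (68.4 ± 4.10) overlapped in second place, followed by Clec5a (51.2 ± 3.60) and Clec7a (48.9 ± 4.82), which overlapped too. Clec4a1 (37.0 ± 3.07) followed, apart from both neighbours, and Clec4a3 (16.6 ± 3.26) was next to last. Clec10a was last in both groups, at 0.758 to 2.50 in any library. The summed level of the 10 receptors ran from 586 to 679 in TpMo-derived and from 621 to 752 in Ly6Chi-derived libraries, so that the sums overlapped while their makeup differed. The share of Clec12a in the sum was 18.1 to 18.7% against 8.59 to 10.9%, and that of Clec7a 2.14 to 2.71% against 5.77 to 8.15%.

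**Figure D4:**
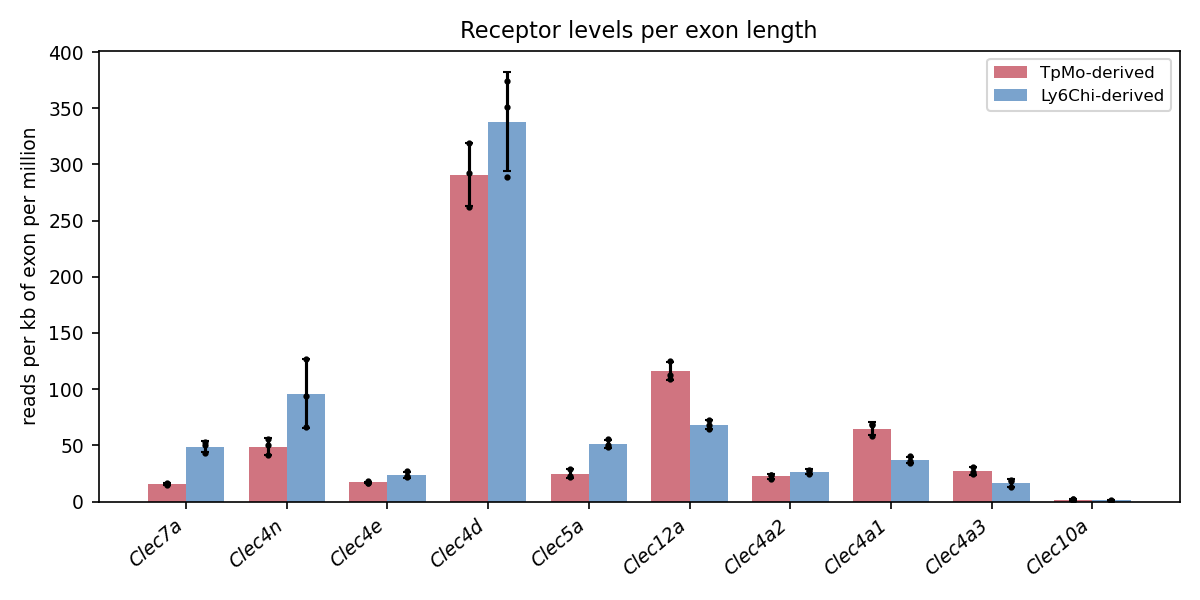
Level per exon length of each receptor, as CPM per kb of exon, as the mean of 3 libraries with SD as a bar and the libraries as dots, TpMo-derived in red and Ly6Chi-derived in blue. Clec4d leads in both groups, followed by Clec12a in TpMo-derived and by Clec4n in Ly6Chi-derived macrophages.

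Ratios of 2 receptors within a library do not depend on the scaling between libraries. The level of Clec12a per length was 6.99, 6.68 and 8.61 times that of Clec7a in TpMo-derived and 1.34, 1.38 and 1.49 times in Ly6Chi-derived libraries. Clec4a1 was 3.44 to 4.75 times as high as Clec7a in TpMo-derived libraries and lower than Clec7a, at ratios of 0.678 to 0.840, in Ly6Chi-derived ones. By contrast the ratio of Clec4d to its partner Clec4e overlapped, at 15.9, 16.3 and 19.4 against 13.5, 16.6 and 13.1. The balance between Clec12a or Clec4a1 and Clec7a thus differed between the groups in every library. These receptors were called in opposite directions above, so the ratios restate those differences and are no separate evidence.

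Other genes of the C-type lectin superfamily were mostly silent. Of 57, 30 had no count in any library, among them Cd209a, Clec9a and Clec4f, and 16 were tested. Of these 16, 4 rose whereas 12 did not pass, and the median was 0.39 (log2 fold change). Over all genes tested 12.3% changed, and 19.6% of those that average 20 CPM or more. The B cell and myeloid receptor Cd72, which carries an ITIM, stood at 397, 392 and 406 CPM against 194, 213 and 208 CPM (log2 fold change 0.96 ± 0.07 SE, adjusted p = 2.26e-05, edgeR). The mannose receptor Mrc1 had a log2 fold change of 1.34 ± 0.11 (SE), and its values did not overlap. Cd93, a receptor linked to the removal of dying cells, stood at 453 ± 23.5 against 359 ± 21.9 CPM (SD, n = 3), and the scavenger receptor Colec12 at 41.1 ± 8.31 against 25.0 ± 3.61 CPM. Cd93 did not pass when replicate 3 of either group was left out (adjusted p at most 0.0602), and Colec12 did not when any library but TpMo-derived replicate 3 was (at most 0.122).

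Signalling proteins that these receptors share were listed as well. Of 24 adaptors, kinases and members of the Card9 module, 22 did not pass, 1 rose and 1 fell. Their median log2 fold change was -0.02. Over all genes tested 12.3% changed, and 19.6% of those that average 20 CPM or more. The count in the list was not tested against these shares. Prkcd, the kinase that phosphorylates Card9, fell slightly (log2 fold change -0.29 ± 0.08 SE). Leaving out replicate 1 or 3 of either group ended that call (adjusted p at most 0.137). The abundant adaptor Lat2 did not pass (-0.18 ± 0.07).

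The central genes of the pathway were named after their values were seen. Fcer1g, the adaptor of Dectin-2, MCL and Mincle, stood at 222, 211 and 244 against 165, 189.8 and 217 CPM, and Tyrobp at 158, 179 and 192 against 142, 171 and 186 CPM. Syk stood at 203, 186 and 162 against 191, 229 and 215 CPM, and Card9 at 11.4, 11.5 and 8.38 against 5.92, 13.6 and 12.1 CPM. All 4 overlapped between the groups and did not pass, with log2 fold changes of 0.24 ± 0.10, 0.08 ± 0.11, -0.20 ± 0.10 and -0.01 ± 0.32 (SE). A difference that misses the threshold does not show equal levels.

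Among 10 proteins that restrain the pathway, 6 did not pass, 3 rose and 1 fell. Their median log2 fold change was 0.13. Over all genes tested 12.3% changed. Ptpn6, the phosphatase recruited by ITIMs such as that of Clec12a, stood at 471, 527 and 502 CPM in TpMo-derived and at 309, 311 and 287 CPM in Ly6Chi-derived libraries. The groups were far apart (log2 fold change 0.73 ± 0.07 SE, adjusted p = 1.04e-04, edgeR). The ubiquitin-editing enzyme Tnfaip3 and the adaptor Dok1 rose, with log2 fold changes of 0.78 and 0.48, and the adaptor Dok3 fell, with -0.55. Tnfaip3 did not pass when replicate 3 of either group or Ly6Chi-derived replicate 1 was left out (adjusted p at most 0.0575), and Dok1 did not when replicate 3 of either group or Ly6Chi-derived replicate 2 was (at most 0.0662). The phosphatase Inpp5d did not pass, at 359 ± 11.2 against 362 ± 22.4 CPM (SD, n = 3).

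Of 22 genes known to be induced through Dectin-1, Dectin-2 or Mincle, 15 were tested, of which 4 rose and 1 fell. The median log2 fold change of those tested was 0.38. The other 7, Il1b, Il6, Il12b, Il23a, Csf2, Csf3 and Nos2, were too low to test. Over all genes tested 12.3% changed. No stimulus of these receptors is named in the labels. Tnf rose, with a log2 fold change of 1.02 ± 0.14 (SE), Egr1 with 1.74 ± 0.36, Nfkbia with 0.38 ± 0.09 and Nfkbiz with 1.23, whereas Egr2 fell, with -1.24 ± 0.23. With no count filter Egr1 did not pass (adjusted p = 0.181), nor did it when Ly6Chi-derived replicate 1 or 2 was left out (at most 0.0598). Nfkbia did not pass when TpMo-derived replicate 3 or any 1 of the Ly6Chi-derived replicates was left out (at most 0.0929). Nfkbiz did not when TpMo-derived replicate 3 or Ly6Chi-derived replicate 1 or 2 was left out (at most 0.137). The abundant Il1rn (498 ± 74.5 against 443 ± 42.6 CPM) and Dusp1 (435 ± 78.4 against 431 ± 134 CPM) did not pass.

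Of 13 transcription factors of myeloid cells, 11 were tested, of which 2 rose and 1 fell. The median log2 fold change was 0.09. Over all genes tested 12.3% changed. Maf stood at 117, 115 and 123 against 80.8, 78.1 and 82.6 CPM (log2 fold change 0.55 ± 0.09 SE, adjusted p = 0.00259, edgeR) and Irf8 at 343, 358 and 357 against 287, 269 and 262 CPM (0.37 ± 0.07). Spi1, which encodes PU.1, stood at 427, 425 and 450.3 against 364, 374 and 422 CPM. It did not pass (adjusted p = 0.183, edgeR), nor did Stat6.

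**Figure D5:**
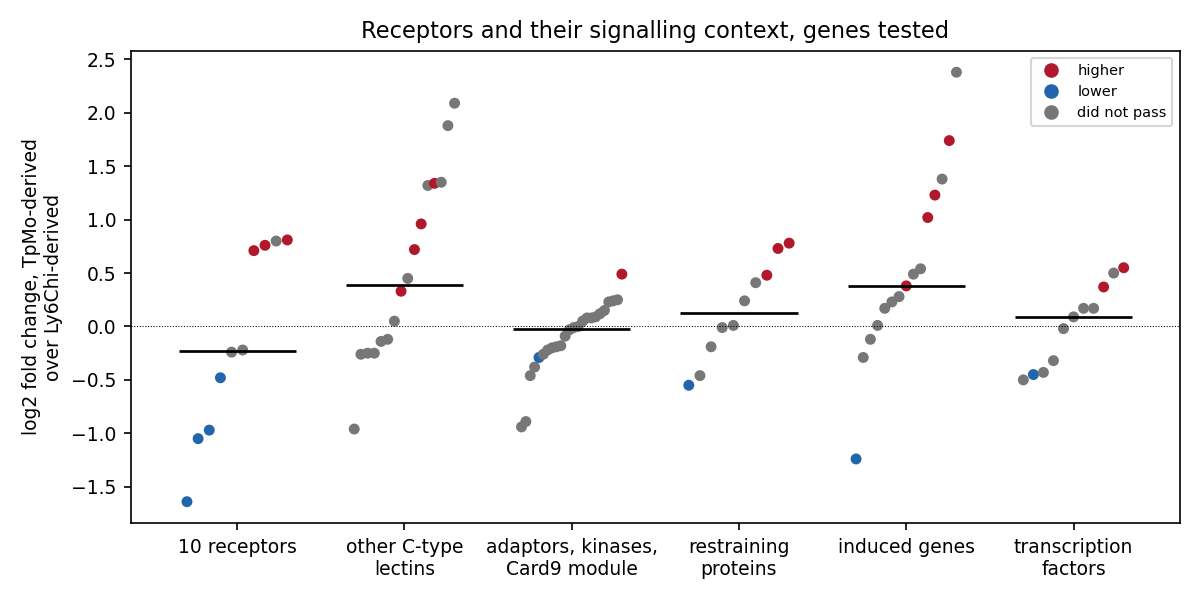
Log2 fold change, TpMo-derived over Ly6Chi-derived, of every tested gene of the 10 receptors and of 5 lists around them, sorted within each list, with a line at the list's median. The receptors spread from -1.64 to 0.81, whereas the medians of the adaptor and kinase list and of the transcription factors lie at -0.02 and 0.09.

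The genes whose profile over the 6 libraries was most like that of a changed receptor were sought for the 3 changed ones with the highest mean CPM, which is not corrected for length, by the root mean square difference of centred log2 CPM among 9008 other protein-coding genes averaging 5 CPM or more. Nearest to Clec12a were Sesn1 (difference 0.037) and the interferon-induced Ly6e (0.044), with log2 fold changes of 0.74 and 0.78. Nearest to Clec5a were the sulfatase Sulf2 (0.029) and Havcr2 (0.069), which encodes the inhibitory receptor TIM-3, with -1.05 and -1.11. Nearest to Clec4n were Mgst3 (0.135) and Pdlim7 (0.155), with -0.91 and -1.02. With 3 libraries per group, such a likeness rests mainly on the difference between the groups.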

How the data were processed

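The deposited table holds whole-number read counts of genes in 6 libraries, as the authors made it. Per the file header, featureCounts 1.6.3 counted reads over exons of GENCODE M22 with no option for pairs, strand or multi-mapped reads, so mates were counted separately, strand was ignored, and multi-mapped reads and reads on several genes were left out. SMART-seq v2 libraries were read in pairs of 51 cycles, per the labels' protocols. The submitters' processing notes name STAR, without a version, and GRCm38.

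Symbols came from GENCODE M21 (55394 identifiers matched, 93 did not). A floor of 3 counts equals 0.0908 to 0.126 CPM of the library totals and covers counting error only. Library pairs within a group differed by a chi-square per degree of freedom of 20.6 to 33.8, so no library repeats the counts of another in its group. Pairs across the groups were not compared in this way.

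The test was that of edgeR 4.0.16 under R 4.3.3 (filterByExpr with a minimum count of 10 and minimum total of 15, TMM, robust quasi-likelihood test, no covariate). Of 13140 genes tested, 859 were higher and 761 lower. Standard errors are the log2 fold change over the square root of F. The script was tested on simulated data. Levels per length are CPM divided by exon kb. The likeness measure used log2(CPM + 0.1).

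All 10 receptors are named. In each list around them, up to 4 changed genes with the smallest p and the 2 most abundant genes are named. Fcer1g, Tyrobp, Syk, Card9, Nfkbiz, Bst2, Cd24a and Mgl2 were chosen after their values were seen. So were list members given as examples of no counts or as too low to test. Some genes that this rule would name are not reported here. The members and lists were chosen with earlier results of these data known. Alternatives were other scalings (library totals, DESeq2 1.42.0 size factors, upper quartile), other filters, the DESeq2 Wald test, limma-voom 3.58.1, edgeR without robust estimation, stricter thresholds, and leaving out each library.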

Additional observations from a re-analysis of the deposited data

How the results depend on the processing

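The count of changed receptors stayed at 6 or 7 of 10 under all scalings, filters and other tests, and no receptor changed direction in any alternative. It fell to 4 at an adjusted p under 0.01 and to 2 when tested against a 1.5-fold change. In that test 0 receptors were higher by edgeR's glmTreat (2 at an unadjusted p under 0.05), and 2 were lower, as at an adjusted p under 0.01. Beside the receptors, Cd72, Mrc1 and Tnf kept their call in that test, whereas Ptpn6, Dok3, Egr2, Maf and Irf8 lost it there alone. When 1 library was left out, 4 to 7 receptors changed, 2 to 3 upward and 2 to 4 downward, with the fewest without TpMo-derived replicate 1. The count over all genes was 785 at an adjusted p under 0.01, 317 against a 1.5-fold change and 976 to 1492 without 1 library. It moved by over 1.5 times without any 1 of the Ly6Chi-derived replicates 1, 2 and 3 (1058, 976 and 1062) or TpMo-derived replicate 3 (1074).

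Among genes that did not pass, the sign of a log2 fold change near 0 turned for Inpp5d without 1 library (-0.06 to 0.03), for Dusp1 with library totals alone (-0.04) and without 1 library (-0.23 to 0.21), for Tyrobp without 1 library (-0.03 to 0.17), and for Card9 with limma-voom (0.07) and without 1 library (-0.30 to 0.20). With library totals alone, all 20 group means of level per length moved by less than 1 SD. No paired analysis was possible because the labels give no replicate number, and the numbers used here follow accession order. The cause of these shifts was not tested. Clec10a, with 60 to 195 counts per library, is the receptor whose depth limits its comparison most.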

Other observations

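A few other C-type lectin genes were seen in 1 or 2 libraries of a group. Cd209f stood at 1.04 CPM in both TpMo-derived replicates 1 and 3 and had no count elsewhere, Cd209g stood at 1.48 CPM in TpMo-derived replicate 3 alone, and Klrb1c, a natural killer cell receptor, at 0.617 and 1.35 CPM in Ly6Chi-derived replicates 1 and 2 alone. All of these were below the filter and were not tested. Mgl2, the neighbour of Clec10a that shares sequence with it, stood at 2.17 ± 1.74 CPM in TpMo-derived and at 4.20 ± 1.20 CPM in Ly6Chi-derived macrophages (SD, n = 3), with overlap. It did not pass, with a log2 fold change of -0.96 ± 0.60 (SE), where that of Clec10a was 0.80 ± 0.48.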
